A study of Mus musculus with 23 samples.

Results

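The major urinary proteins are small lipocalins that the mouse liver secretes into the blood and that pass into the urine, where they bind volatile pheromones and release them slowly. The genes lie side by side in one cluster, and many copies are almost identical. Their transcription in liver is known to be higher in males, to depend on the pulsatile growth hormone signal through its receptor, JAK2 and STAT5B, and to respond to glucocorticoids, androgens and nutrition. The glucagon receptor (GCGR) is the hepatocyte receptor through which glucagon raises glucose output and amino acid breakdown.

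Of the 24475 genes in the table of liver expression values, 10 were studied here by symbol: Mup1, Mup2, Mup3, Mup7, Mup10, Mup14, Mup17, Mup19, Mup20 and Mup21. The table holds 10 other Mup genes, so the members are 10 of 20. All mice were male C57BL/6J, kept on regular chow or high-fat feed (HFD) during 4 months. Each was dosed with an antibody (10 mg/kg) over the 3 weeks that followed. REGN1193 is the antibody that blocks the glucagon receptor. REGN496 is the other antibody in the labels and was taken by elimination as the isotype control that the design text mentions without a code. The groups were control antibody on chow (libraries 1 to 5, n = 5), GCGR antibody on chow (libraries 6 to 11, n = 6), control antibody on HFD (libraries 12 to 17, n = 6) and GCGR antibody on HFD (libraries 18 to 23, n = 6). No group was without an antibody, and the age of the mice is not stated in the labels. Whether the libraries of a group are from different mice is not stated, so a p-value here reflects the variation among libraries, part of which may be technical.

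The 10 genes lie on mouse chromosome 4 between positions 60066469 and 62150841 of GRCm38, a span of 2.08 Mb, all on the minus strand. Of these, Mup7 lies at chr4:60066469-60070475 and Mup20 at chr4:62011337-62054143. The reference transcript of each member was cut into windows of 33 bases, the read length of these libraries, and each window was looked up in the transcripts of every annotated gene (GENCODE vM21). In Mup3 71.0% of the windows occurred in no other gene, in Mup21 68.7% and in Mup20 37.2%. For the other 7 members that share was between 0% (Mup2 and Mup19) and 14.7% (Mup17), and the median window occurred in 14 to 15 genes. These 7 members have coding sequences that are 98.5% to 99.4% identical to each other, with 3 to 8 substitutions per pair. A stretch of the coding sequence is shown for how far the copies differ. It covers bases 157 to 189 of the Mup20 coding sequence, and capitals mark bases unlike Mup7.

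Mup7: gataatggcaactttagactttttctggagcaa
Mup17: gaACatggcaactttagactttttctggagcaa
Mup20: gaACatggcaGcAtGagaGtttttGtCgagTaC
Mup3: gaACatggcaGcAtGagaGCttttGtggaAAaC

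The Mup7 line is also the sequence of Mup1, Mup2, Mup10, Mup14 and Mup19, and a read from it could come from any of 14 genes. The lines of Mup17 and Mup20 each occur in 2 genes, and the Mup3 line is also the sequence of Mup21. The Mup20 line differs from that of Mup7 at 10 of 33 bases and the Mup3 line at 11. The sources used here do not say how the authors assigned reads shared between copies, so the split of reads among Mup1, Mup2, Mup7, Mup10, Mup14, Mup17 and Mup19 is uncertain. Mup19 was listed between 0 and 2.9e-15 RPKM in all 23 libraries, and it holds no window of its own. It did not pass the filter on low values and is not described further, so 9 of the 10 members were tested.

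RefSeq promoter sequences (GRCm38.p6) were matched for 8 of the 10 members. Those of Mup2, Mup17 and Mup10 are shown because the values of Mup2 and Mup17 were lower on HFD while that of Mup10 was higher. The RefSeq table gives 250 bases before the RefSeq start. By the gene positions used above, these genes begin further upstream. As a result 121 of the 250 bases of Mup2, 33 of Mup17 and 121 of Mup10 lie inside the gene. Printed are the first 129 of the 250 bases, which lie before both starts in all 3 genes, on the minus strand, at chr4:60139978-60140106, chr4:61595954-61596082 and chr4:60582277-60582405. Capitals mark bases unlike Mup2 in the alignment, among them bases that the Mup2 stretch does not reach.

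Mup2: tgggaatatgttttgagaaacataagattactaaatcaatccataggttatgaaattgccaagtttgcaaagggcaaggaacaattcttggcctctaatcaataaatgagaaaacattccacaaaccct
Mup17: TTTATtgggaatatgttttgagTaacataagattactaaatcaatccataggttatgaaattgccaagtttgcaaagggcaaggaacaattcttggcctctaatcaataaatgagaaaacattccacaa
Mup10: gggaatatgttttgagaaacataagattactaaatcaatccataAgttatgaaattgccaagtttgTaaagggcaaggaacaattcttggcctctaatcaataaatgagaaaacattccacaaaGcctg

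Over the whole 250 bases before the RefSeq start, the aligned sequences of Mup2 and Mup17 were 95.3% identical, and those of Mup2 and Mup10 92.5%. No match was found in the 8 promoters, on either strand, to TTCNNNGAA (the core bound by STAT5) or TTGCNNAA (bound by C/EBP factors). None was found to TATAAA, an exact form of the TATA box. Among all 32851 promoters, 8.30% held the STAT5 letters, 10.8% the C/EBP letters and 13.6% TATAAA. The similar letters TATATAAG occur before the RefSeq start of Mup2, Mup3, Mup10, Mup17, Mup19 and Mup21. They were not counted among all promoters, and in Mup2, Mup17 and Mup10 they lie beyond the printed bases. In Mup7 and Mup14 the 250 bases end before the stretch that holds these letters in the other copies. The absence of Mup7 and Mup14 from this list therefore says nothing about that stretch. The 250 bases do not cover the same stretch in all 8 genes.

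Values are RPKM, reads scaled to transcript length and library size, a scale that allows levels to be compared between genes. Summed RPKM per library was 594026 to 692295, and the relative depth of the libraries, estimated from the step between low values, ranged from 0.865 to 1.14. Total read counts are unknown. The hepatocyte markers Alb, Ttr, Apoa1, Serpina1a and Hnf4a were above 0 in every library. Of the listed markers of other cells, Ly6g and Retnlg of neutrophils were at 0 in 4 libraries each. Adipoq, Plin1 and Lep of adipocytes were at 0 in 10, 13 and 20. All other listed markers were above 0 in every library, among them S100a8 and S100a9 of neutrophils and Cfd of adipocytes. For Hbb-bs of red blood cells the median was 2.42e-06 RPKM, which is next to 0. Libraries 19 and 20, both from the group given GCGR antibody on HFD, stood apart. Their mean correlations with the rest of their group over all tested genes were 0.980 and 0.979, against 0.984 or more in the other 21 libraries. In these 2 libraries the summed T and NK cell markers were 18.2 and 11.4 RPKM, against 3.35 to 10.3 in the other 4 of the group. The summed cholangiocyte markers were 36.8 and 40.1 RPKM there, against 12.4 to 25.6. The part of these cells in the results below was not tested, and results that change without libraries 19 and 20 are given both ways.

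On chow under control antibody Mup20 had the highest mean level of the family, at 8158 ± 2209 RPKM (SD, n = 5), followed by Mup3 at 6286 ± 590 and Mup7 at 5959 ± 1335. The libraries of these 3 genes overlapped. Mup2 followed at 2489 ± 548 RPKM and Mup1 at 2105 ± 238, also with overlapping libraries. Mup17 at 1097 ± 431 and Mup14 at 1083 ± 324 RPKM were next. Mup10 at 180 ± 64.9 and Mup21 at 165 ± 56.3 RPKM were the lowest of the 9. The 10 members made up 3.45% to 5.31% of the summed RPKM of all genes in this group. That share was 5.96% to 8.75% with GCGR antibody on chow, 1.25% to 2.78% with control antibody on HFD, and 2.23% to 7.01% with GCGR antibody on HFD. The 2 chow groups did not overlap in this share, and the 2 HFD groups did. Mup20 ranked from 2nd to 4th among all genes of the liver in the 6 chow libraries with GCGR antibody, and from 20th to 40th in the 6 HFD libraries with control antibody.

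**Figure D1:**
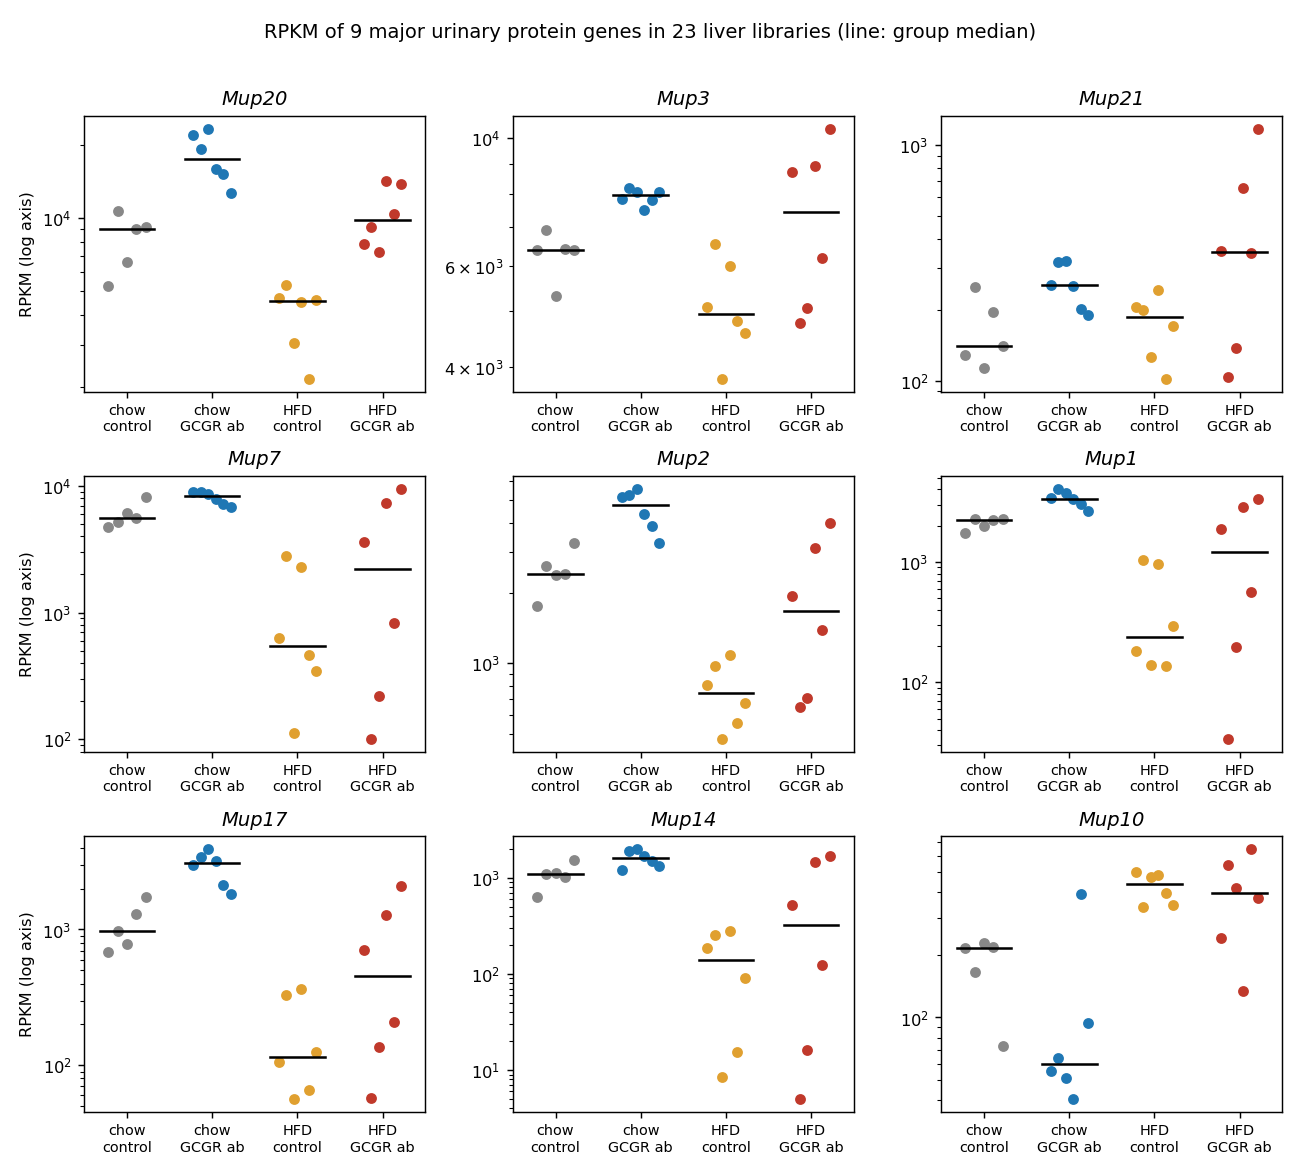
RPKM (log axis) of 9 major urinary protein genes in each of 23 libraries, one point per library in 4 groups, with the group median as a line. Mup20 was higher with GCGR antibody on each diet, whereas Mup7, Mup1, Mup14 and Mup17 spread over more than 5-fold within each HFD group.

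**Figure D2:**
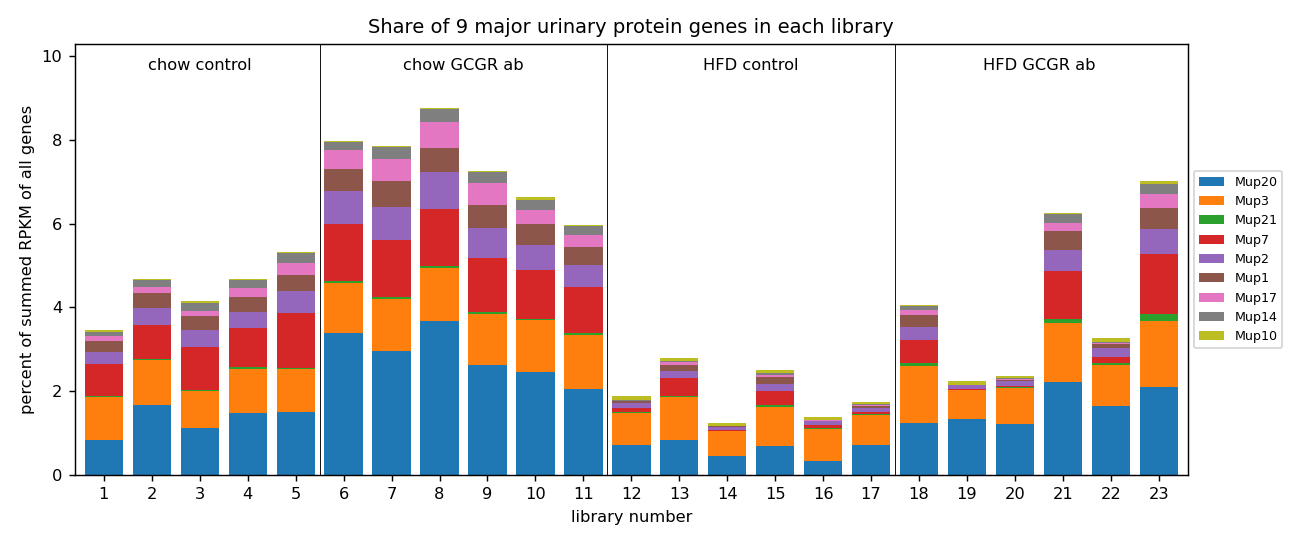
Share of the summed RPKM of all genes taken by each of 9 major urinary protein genes, stacked, in libraries 1 to 23. The chow libraries with GCGR antibody reach the highest bars (5.96% to 8.75%), and libraries 19 and 20 hold little besides Mup20 and Mup3.

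The first question was what blocking the glucagon receptor did to these genes in lean mice. Mup20, which encodes darcin, the protein pheromone of male mouse urine, rose. Mup20 in the control libraries 1 to 5 was at 5239, 10742, 6580, 9040 and 9187 RPKM. In the 6 GCGR antibody libraries it ranged from 12675 to 23463 RPKM, with a median of 17661. The lowest treated library was above the highest control library. The treated mean of 18118 ± 4184 (SD, n = 6) was 2.22 times the control mean. Its log2 fold change, on the scale of log2(RPKM + 1) used throughout, was 1.16 ± 0.24 (SE), with an adjusted p of 0.0139 (limma, Benjamini-Hochberg over 11939 genes). Without control library 1 the fold change was 1.02 and the adjusted p 0.0505, so the call on chow rested on that library.

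Mup20 was the 1 member of 9 that passed the test on chow, and 0 members fell. Over all tested genes 0.394% rose and 0.553% fell. The median log2 fold change of the 9 members was 0.66, beside 0.03 over all tested genes. Mup1, Mup17 and Mup3 also had every treated library above every control library, which makes 4 of 9 members with Mup20, against 1.5% of all tested genes. Mup1 lay at 1744, 2294, 1979, 2237 and 2269 RPKM in the controls and between 2638 and 4055 in the treated libraries. Mup17 lay at 679, 981, 784, 1303 and 1741 RPKM in the controls and between 1840 and 3924 in the treated libraries. Mup3, the member with the most windows of its own, was the steadiest, at 5315 to 6931 RPKM in controls and 7488 to 8167 in treated libraries. None of these 3 passed the test with the spread taken from all 4 groups. Their log2 fold changes were 0.67 ± 0.83 (adjusted p = 0.831) for Mup1, 1.44 ± 0.68 (0.451) for Mup17 and 0.33 ± 0.17 (0.487) for Mup3.

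When the fit used the 2 chow groups alone, 5 of 9 members were called higher, against 0.653% of all genes tested in that fit. Besides Mup20 they were Mup1 (adjusted p = 0.0126), Mup17 (0.014), Mup2 (0.0196) and Mup3 (0.0482). The spread of Mup1 and Mup17 within the HFD groups was much larger than within the chow groups, as described below, and the fit over 4 groups carries it into the chow comparison.

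Mup7, one of the near-identical copies, was at 4702 to 8152 RPKM in controls and 6868 to 8990 in treated libraries, with overlap and a log2 fold change of 0.46 ± 0.93 (adjusted p = 0.916). Mup2 had a log2 fold change of 0.88 ± 0.36 (0.368), Mup14 of 0.60 ± 1.15 (0.911) and Mup21 of 0.66 ± 0.43 (0.628), each with overlapping libraries. Mup10 went the other way without passing the test, at −1.04 ± 0.45 (adjusted p = 0.413). Its controls were at 216, 165, 228, 218 and 72.6 RPKM. Its treated libraries were at 40.5 to 93.8 RPKM except library 10, at 391. Without library 10 the fold change of Mup10 was −1.50 and the adjusted p 0.0405, which would make it the 1 member that fell.

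In mice fed HFD, Mup20 rose again with the GCGR antibody. Mup20 ranged from 2166 to 5281 RPKM in the 6 control libraries, with a median of 4557, and from 7265 to 14265 RPKM in the 6 treated libraries, with a median of 9801. Every treated library was above every control library. The means were 4050 ± 1182 and 10469 ± 2986 RPKM (SD, n = 6 each), a ratio of 2.59. The log2 fold change was 1.38 ± 0.23 with an adjusted p of 4.34e-04, and it stayed past the threshold under all 21 alternatives tried, with adjusted p between 2.72e-04 and 0.00534. Leaving out libraries 19 and 20 gave 1.54 with an adjusted p of 4.42e-04.

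The other member called higher on HFD was Mup2, one of the copies with no window of its own, at 1.11 ± 0.34 (adjusted p = 0.0494). Mup2 lay between 473 and 1083 RPKM (median 742) in the controls and between 647 and 3968 (median 1667) in the treated libraries, with overlap. Its call was lost in 12 of 21 alternatives. Without library 12 the adjusted p of Mup2 was 0.079, without 14 it was 0.113, without 16 it was 0.0945 and without 17 it was 0.0758. Without library 18 it was 0.0931, without 21 it was 0.122, without 22 it was 0.0717 and without 23 it was 0.0988. Thus 2 of 9 members rose and 0 fell on HFD, where 5.33% of all tested genes rose and 2.12% fell. The median of the members was 1.0, beside 0.05 over all tested genes. Mup20 alone among the 9 had no overlap between the groups on HFD, a pattern found higher in 2% of tested genes.

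Most other members had positive estimates on HFD, below that of Mup2 except for Mup17, and their libraries overlapped. Mup17 had a log2 fold change of 1.49 ± 0.65 (adjusted p = 0.162), Mup14 of 1.07 ± 1.09 (0.58), Mup1 of 1.0 ± 0.79 (0.459), Mup7 of 1.0 ± 0.88 (0.512) and Mup21 of 0.99 ± 0.41 (0.142). Mup3 was at 0.47 ± 0.16 (0.0711). Mup10 was at −0.27 ± 0.43 (0.746). Without library 19 the number of members called higher was 6, where 9.65% of all tested genes were, with Mup1 (0.047), Mup17 (0.0249), Mup3 (0.0135) and Mup21 (0.0216) added. Mup3 was also called without library 13 (0.0405) and without library 20 (0.0304). Without libraries 19 and 20 together 8 of 9 members were called higher, where 7.06% of all tested genes were. These were all except Mup10, among them Mup7 at 2.56 (0.0199) and Mup14 at 3.06 (0.0192). These 2 libraries were left out for their low correlation with their group, a choice made after seeing the data, and they were also the 2 lowest libraries of their group for Mup7, Mup1, Mup14, Mup17, Mup2, Mup3 and Mup21.

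**Figure D3:**
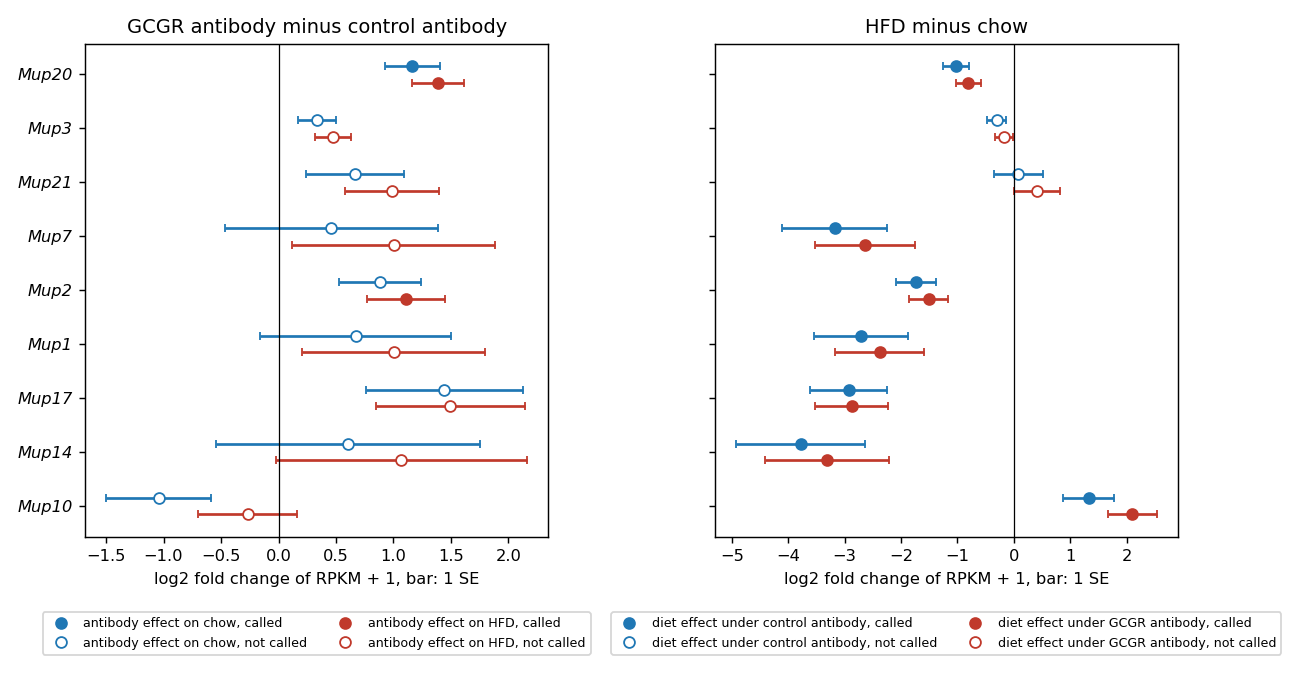
Log2 fold change of RPKM + 1 for 9 members with 1 standard error, for GCGR antibody against control antibody on each diet (left) and HFD against chow under each antibody (right), with filled points for calls at an adjusted p under 0.05. Mup20 is called in all 4 comparisons, and Mup10 lies on the opposite side of 0 from Mup7, Mup2, Mup1, Mup17, Mup14 and Mup20.

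No member differed in its antibody effect between the diets by the test of that difference (0 of 9 called, against 0.126% of all tested genes higher and 0.0754% lower). In that test 0 members had an unadjusted p under 0.05. For Mup20 the difference was 0.22 ± 0.33 on the log2 scale (adjusted p = 0.858), with a 95% interval from −0.46 to 0.90. For Mup7 the interval ran from −2.11 to 3.19, which leaves large differences in either direction undetectable at this spread.

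The diet comparison asked how high-fat feeding changed the same genes. Under control antibody, 6 of the 9 members fell on HFD, while 18.3% of all tested genes fell and 11.6% rose. The 6 were Mup14 (−3.78 ± 1.15, adjusted p = 0.0167), Mup7 (−3.18 ± 0.93, 0.0132), Mup17 (−2.93 ± 0.68, 0.00301), Mup1 (−2.71 ± 0.83, 0.0178), Mup2 (−1.74 ± 0.36, 0.00122) and Mup20 (−1.03 ± 0.24, 0.00284). All 6 kept the call in each of the 19 alternatives tried. Mup7 was at 4702, 5181, 6135, 5629 and 8152 RPKM on chow. On HFD it ranged from 112 to 2789 RPKM with a median of 544, and no library overlapped. Of the 9 members, 5 were lower on HFD with no overlap (Mup7, Mup2, Mup1, Mup14 and Mup17) and 1, Mup10, was higher, where 10.4% and 5.49% of all tested genes were. The mean of Mup7 on chow was 5.41 times that on HFD, and that of Mup14 7.80 times. For Mup20 the ratio was 2.01, and the lowest chow library (5239 RPKM) lay just below the highest HFD library (5281 RPKM).

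Mup3 and Mup21, the members with the most sequence of their own, did not follow. Mup3 was at 6286 ± 590 RPKM on chow and 5138 ± 988 on HFD, a log2 fold change of −0.31 ± 0.17 (adjusted p = 0.169). Mup21 was at 165 ± 56.3 and 175 ± 53.1 RPKM, a log2 fold change of 0.08 ± 0.43 (0.906) that was −0.03 after rescaling without the Mup genes. A p that misses the threshold does not show that these levels were equal: the 95% interval for Mup21 ran from −0.80 to 0.97. Outside the members, Mup6, Mup5 and Mup4, with 77.2%, 66.3% and 65.1% of windows of their own, fell on HFD under control antibody. Their log2 fold changes were −1.78 ± 0.40 (adjusted p = 0.00222), −0.64 ± 0.18 (0.00973) and −0.71 ± 0.25 (0.0328).

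Mup10 rose on HFD, by 1.32 ± 0.45 (adjusted p = 0.0314), the 1 member that did. It was at 72.6 to 228 RPKM on chow and 340 to 502 RPKM on HFD (median 438), with no overlap, and the HFD mean was 2.36 times the chow mean. The call was lost without library 5 (adjusted p = 0.105), library 12 (0.0576), library 14 (0.0562) or library 15 (0.0539). Mup10 shares 87.8% of its windows with Mup22, and 10.6% of its windows are its own. Mup22 has no row among the deposited values, and how its reads were assigned is not stated.

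Under GCGR antibody the same 6 members fell on HFD and Mup10 rose, where 16.6% of all tested genes fell and 13.2% rose. The 6 were Mup14 at −3.31 ± 1.09 (adjusted p = 0.0259), Mup17 at −2.88 ± 0.65 (0.00216), Mup7 at −2.64 ± 0.88 (0.0277), Mup1 at −2.38 ± 0.79 (0.0271), Mup2 at −1.51 ± 0.34 (0.0021) and Mup20 at −0.81 ± 0.23 (0.0101). Mup10 rose by 2.10 ± 0.43 (0.00101), from a chow mean of 116 ± 136 RPKM to 393 ± 189 on HFD. Mup3 (−0.17 ± 0.16, 0.448) and Mup21 (0.40 ± 0.41, 0.480) did not pass the test.

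The losses of Mup7, Mup1 and Mup14 under GCGR antibody rested on few libraries. Without library 19 their adjusted p-values were 0.0805, 0.0651 and 0.0742, and without library 20 they were 0.0668, 0.0599 and 0.0628. For Mup7 the call also went without library 22 (0.0539). Without libraries 19 and 20 together, 2 members fell (Mup2 at −0.90, adjusted p = 0.015, and Mup17 at −1.83, 0.0176) and 2 rose (Mup10 at 1.87, 0.00828, and Mup21 at 1.14, 0.00964), where 15.6% of all tested genes fell and 10.6% rose. Mup20 was then at −0.65 (0.0586). The diet comparisons and the antibody comparisons share groups, so their calls are not independent of each other.

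For Mup20 the order of the 4 groups was GCGR antibody on chow (18118 RPKM), GCGR antibody on HFD (10469), control on chow (8158) and control on HFD (4050). The neighbours in the middle did not differ beyond their spread: treated HFD against control chow gave 0.36 ± 0.24 (adjusted p = 0.282), with a 95% interval from −0.13 to 0.85. In that comparison 0 of 9 members were called by limma, where 12.8% of all tested genes rose and 10.7% fell. By unadjusted p, Mup21 (0.0203), Mup14 (0.0272), Mup7 (0.0278), Mup10 (0.0294) and Mup17 (0.047) were below 0.05. Mup21 was the member nearest to a call, at 1.07 ± 0.43 (adjusted p = 0.0729), and was called without library 19 (0.0127) or library 20 (0.0242). Without library 21, Mup7 (0.0405) and Mup14 (0.0383) were called lower and Mup10 (0.0344) higher. Without library 23, 4 members were called lower, namely Mup7 (0.0286), Mup14 (0.0308), Mup17 (0.0308) and Mup2 (0.0499). The shares of all tested genes in these fits without a single library are not given here. Nor is the share with an unadjusted p under 0.05, so these counts stand without a background. Without libraries 19 and 20 together, Mup3 (0.42, adjusted p = 0.0352) and Mup21 (1.80, 4.45e-04) were called higher, where 9.94% of all tested genes were.

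Mup1, Mup7, Mup14 and Mup17 spread widely between libraries of one HFD group: 99.7% or more of all tested genes had a smaller SD of log2(RPKM + 1) than each of them in both HFD groups. For Mup10 and Mup3 that share was 86.6% and 89.6% under control antibody, and for Mup20 it was 93.7% under GCGR antibody. Mup7 in libraries 18 to 23 was at 3581, 100.3, 219, 7372, 834 and 9501 RPKM, so that the highest library held 94.7 times the level of the lowest. In libraries 12 to 17 it was at 629, 2789, 112, 2271, 460 and 349 RPKM. Library 21 lay within the chow range of Mup7 and library 23 above it, while libraries 19 and 20 lay more than 10-fold below the lowest chow library. Mup14, another near-identical copy, ran from 4.98 RPKM in library 19 to 1692 in library 23, and Mup1 from 33.8 to 3327 in the same libraries. The SD of log2(RPKM + 1) within the treated HFD group was 3.39 for Mup14, 2.73 for Mup7 and 2.58 for Mup1, beside a median of 0.161 over all tested genes. For Mup20 it was 0.41, for Mup3 0.47 and for Mup21 1.32. On chow the SD of Mup7 was 0.30 under control antibody, wider than that of 93.1% of all tested genes, and 0.16 under GCGR antibody, where the median over all tested genes was 0.132. Other members on chow under GCGR antibody were at 1.18 (Mup10), 0.42 (Mup17), 0.34 (Mup20) and 0.30 (Mup2).

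Members moved together across the 12 HFD libraries. After the group means were removed, the Pearson correlation of log2 values among the 7 members other than Mup10 and Mup20 was 0.877 or higher in every pair, Mup3 and Mup21 included. On chow, over 11 libraries, the correlation of Mup3 was −0.15 with Mup7, −0.01 with Mup14 and 0.11 with Mup2, and that of Mup7 with Mup21 was 0.11. Of the 36 pairs of members, 21 were above 0.8 on HFD and 8 on chow. The near-identical members share reads, whose part in these correlations was not tested; 71.0% of the windows of Mup3 are its own. On HFD Mup20 correlated with the members other than Mup10 at 0.567 to 0.719, and Mup10 correlated negatively with all 8. On chow Mup20 correlated with the members other than Mup10 at 0.407 (Mup3) to 0.866 (Mup2). These are descriptions without a test.

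**Figure D4:**
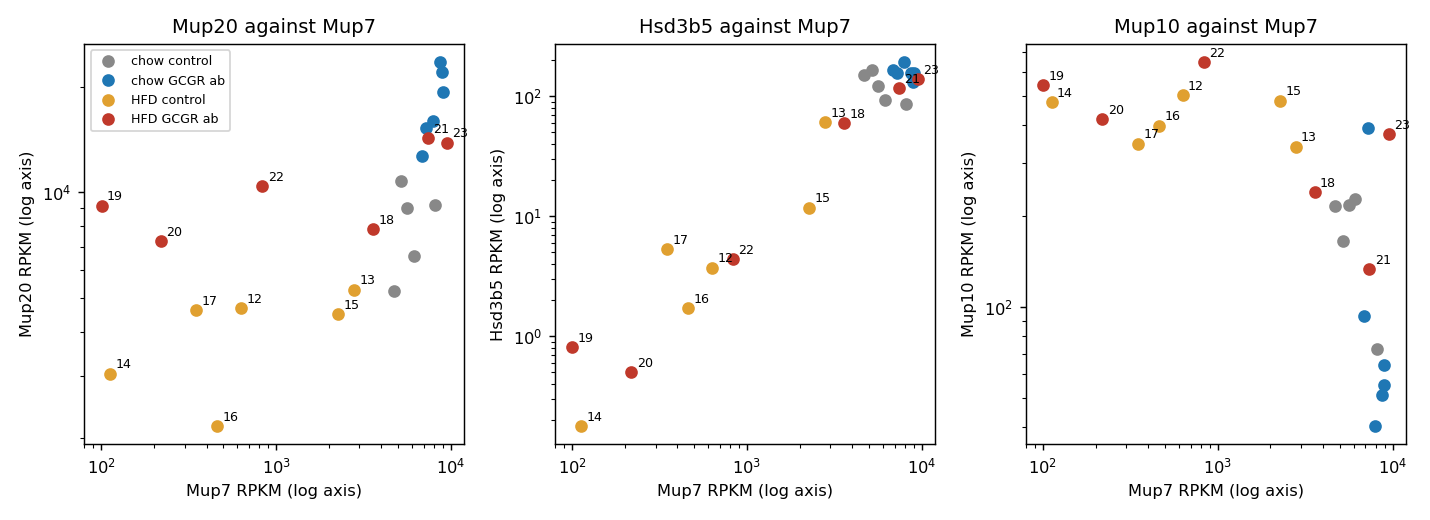
Mup20, Hsd3b5 and Mup10 against Mup7 in RPKM on log axes, one point per library, coloured by group, with library numbers on the HFD points. Hsd3b5 follows Mup7 over the HFD libraries, Mup20 lies higher in the treated HFD libraries at any level of Mup7, and Mup10 is lowest in chow libraries with high Mup7.

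The genes outside the family most like Mup20, by the correlation of deviations from the group mean over 23 libraries, were Gstp1 (0.83), Pick1 (0.74), Nat8 (0.73), Selenbp2 (0.72) and Tpst1 (0.71). Those most like the summed members were Nudt7 (0.94), Selenbp2 (0.93), Cyp4a12b (0.92), Cadm4 (0.92) and Capn8 (0.90). For Mup7, a target added after its spread was seen, they were Susd4 (0.97), Hsd3b5 (0.94), Cyp7b1 (0.93), Slco1a1 (0.93) and Lama3 (0.91). Hsd3b5, a male-specific steroid dehydrogenase of mouse liver, was at 59.4, 0.81, 0.50, 117, 4.38 and 138 RPKM in libraries 18 to 23, the same order of high and low libraries as Mup7 but for the lowest 2. Slco1a1, an organic anion transporter higher in males, was at 108, 6.74, 7.21, 140, 30.8 and 132 RPKM in those libraries. Over the 11 chow libraries the correlation of Mup7 with Susd4 was 0.02 and with Hsd3b5 −0.77. That of Mup20 was 0.90 with Selenbp2 and 0.89 with Gstp1 on chow, and that of the summed members was 0.86 with Selenbp2. The antibody effect of these genes on HFD was 1.26 ± 0.99 for Hsd3b5 (adjusted p = 0.453) and 0.26 ± 0.19 for Gstp1 (0.44), and neither passed the test. Selenbp2 rose by 2.51 ± 0.55 (0.00635).

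The 10 Mup genes of the table that are not members had positive antibody estimates on both diets and negative diet estimates under both antibodies. On HFD 3 of 10 rose with GCGR antibody, where 5.33% of all tested genes rose. They were Mup4 (1.03 ± 0.23, adjusted p = 0.00908), Mup13 (1.61 ± 0.45, 0.0293) and Mup5 (0.58 ± 0.17, 0.0364). That count was 9 without library 19, 6 without library 20, and 1 without library 14, 16, 18, 21 or 23. Mup4 and Mup5 have 65.1% and 66.3% of their windows to themselves. On chow 0 of 10 passed the test in the fit over 4 groups (Mup4 was nearest, at 0.96 ± 0.25, adjusted p = 0.0634), and 6 had an unadjusted p under 0.05. Leaving out single libraries gave 0 to 2 on chow. Under control antibody all 10 fell on HFD, and under GCGR antibody 9 of 10 fell, beside 18.3% and 16.6% of all tested genes.

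Growth hormone signalling was examined through 16 genes of the receptor pathway, 15 of which were tested, and 1 of these is not reported here. The antibody changed 0 of them on chow. On HFD Igf1, the growth factor that liver secretes in response to growth hormone, fell by 0.28 on the log2 scale (SE 0.08, adjusted p = 0.029), a call lost after rescaling without the Mup genes (−0.23, 0.092). The median of the 15 was 0.13 on HFD, beside 0.05 over all tested genes. The growth hormone receptor gene Ghr was at 0.05 ± 0.08 (0.731). HFD under control antibody lowered 3 of the 14 reported here, a share near the 18.3% of all tested genes that fell. After rescaling without the Mup genes it lowered 6, while the lower calls over all genes also went from 2183 to 3462. The 3, named after their values were seen, were Stat5b (−0.57 ± 0.11, adjusted p = 5.37e-04), Socs2, a feedback inhibitor that growth hormone induces (−1.35 ± 0.44, 0.0256), and the phosphatase gene Ptpn2 (−0.25 ± 0.08, 0.0209).

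Among 20 tested transcription regulators linked to sex-biased or Mup transcription, the antibody raised 2 on HFD and 0 on chow. Of all tested genes 5.33% rose with the antibody on HFD. The 2 were Nr1h4, the bile acid receptor FXR (0.41 ± 0.08, adjusted p = 0.00195), and Nr1i3, the xenobiotic receptor CAR (0.48 ± 0.14, 0.0365). The call of Nr1i3 was lost with median-ratio scaling (0.0621). The glucocorticoid receptor gene Nr3c1 was next, at 0.22 ± 0.07 (0.0675). The diet under control antibody lowered Thra, Zhx2 and Hnf4a by 0.25 to 0.27 and raised Cebpa by 0.33 (names chosen after the values were seen). These 3 and 1 of 20 lie beside 18.3% and 11.6% of all tested genes. The call of Hnf4a was lost with median-ratio scaling (adjusted p = 0.0521). After rescaling without the Mup genes that of Cebpa was lost (0.078), and Nr3c1 and Rsl1 were also called lower, which makes 5. The lower calls over all genes then went from 2183 to 3462. Zhx2, a transcription factor known for the silencing of liver genes after birth and linked to Mup expression, was at −0.25 ± 0.07 (0.0116).

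A list of 23 genes known to be higher in male than in female liver was compared with the members. With control antibody 18 of the 23 fell on HFD and 0 rose, where 18.3% of all tested genes fell and 11.6% rose. The median log2 fold change of the 23 was −1.60, beside −0.03 over all tested genes. The count was 17 to 19 when single libraries were left out. GCGR antibody on HFD raised 3 of the 23 and lowered 1, beside 5.33% and 2.12% of all tested genes. The 3 were Selenbp2, Cyp2f2 (0.47 ± 0.11, adjusted p = 0.0114) and Cyp2d9 (0.58 ± 0.16, 0.0293). The 1 lowered was the fatty acid elongase gene Elovl3 (−1.89 ± 0.35, 0.00133). The antibody raised 5 without library 19, and 2 without library 14, 16, 18, 21, 22 or 23 or with median-ratio scaling. On chow it changed 0 of the 23. Of 20 tested female-biased genes, 7 rose and 6 fell on HFD under control antibody, and 11 rose and 7 fell under GCGR antibody. Over all tested genes the shares were 11.6% and 18.3%, and 13.2% and 16.6%. The antibody raised 5 of the 20 and lowered 2 on HFD, beside 5.33% and 2.12% of all tested genes. It raised 3 without library 12, 13, 14, 20 or 22. The smallest adjusted p-values in that list were those of the steroid hydroxylase gene Cyp17a1 (−3.11 ± 0.25, 2.52e-08), the monooxygenase gene Fmo1 (0.56 ± 0.09, 3.70e-04) and Cyp3a41b (0.63 ± 0.13, 0.00326).

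Further sets of secreted proteins were placed beside the members. Of 9 tested liver lipocalins outside the Mup family, Apom, the carrier of sphingosine 1-phosphate on lipoproteins (0.42 ± 0.10, adjusted p = 0.0132), and Orm3, an orosomucoid gene (1.77 ± 0.49, 0.0282), rose with GCGR antibody on HFD, and 0 rose or fell on chow. The call of Apom was lost with median-ratio scaling (0.0563). Over all tested genes 5.33% rose and 2.12% fell with GCGR antibody on HFD. Of 20 abundant secreted or binding proteins of hepatocytes, 0 rose with the antibody on either diet. Alb (−0.37 ± 0.09, 0.0137) and Serpina1b (−0.26 ± 0.07, 0.0331) fell on HFD; the call of Serpina1b was lost after rescaling without the Mup genes (0.101). Among the markers of other cells, 3 of 4 tested T and NK cell genes rose with GCGR antibody on HFD (Ccl5, Cd3g and Il2rb). The summed level of all listed T and NK cell genes was 3.35 to 18.2 RPKM in that group and 3.22 to 4.16 in the control group. In bulk liver a change in the share of a cell type and a change in RNA per cell cannot be told apart.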

How the data were processed

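Liver mRNA of 23 libraries was sequenced as strand-specific single reads of 33 cycles, per the labels' protocols. The authors deposited 1 table of RPKM values for 24475 genes. The submitters' processing notes name bcl2fastq 2.17, FastQC and the GRCm38 build; the sources used here give no aligner, counting step or annotation. The table holds 951 values above 0 and below 1e-06 in 233 genes, and counts were not recovered from it. Groups were read from the sample titles.

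RPKM was transformed to log2(RPKM + 1). Genes with at least 0.5 RPKM in at least 5 libraries were kept (11939 genes), and limma 3.58.1 in R 4.3.3 was fitted with 4 group means over 23 libraries and a mean-variance trend. Tests were two-sided, with Benjamini-Hochberg adjustment over all genes and calls below 0.05. The procedure was tested on simulated data. The members and lists were chosen with earlier results of these data known. All members were named, with up to 3 genes of each list by smallest adjusted p for the antibody on HFD; 1 gene of the lists is not reported here. Likeness was ranked by the correlation of deviations from group means. Protein sequences were not used here, and coding sequences from GENCODE vM21 were aligned in their place (Biopython 1.88). Alternatives covered the pseudocount, the filter, the scaling, the trend, the groups fitted and single libraries left out; leaving out libraries 19 and 20 together was added after seeing the data.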

Additional observations from a re-analysis of the deposited data

Results flagged for a closer look

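Of 36 groups of values (9 members in 4 groups), 2 held a library far from the rest, and chance flags about 1 in 20. Mup10 in library 5, control antibody on chow, was the lowest of 5, at 72.6 RPKM against 165 to 228 in the others, and its gap to the next library was 0.717 of the range of the group. Library 5 was the highest of its group for Mup2 (3286 RPKM, against at most 2609), Mup7 (8152 against 6135), Mup14 (1540 against 1122) and Mup17 (1741 against 1303). Mup10 in library 10, GCGR antibody on chow, was the highest of 6, at 391 RPKM against 40.5 to 93.8, with a gap of 0.632 of the range. In library 10 the other 8 tested members lay inside the range of the other 5 libraries of the group.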

How the results depend on the processing

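No paired analysis was possible because the groups share no replicate numbers. With a pseudocount of 10, with no filter, with median-ratio scaling or with only the groups compared, 1 member was called higher with the antibody on HFD; the range was 1 to 6 with single libraries left out, and 8 without libraries 19 and 20. On chow 5 were called higher with only the groups compared, and 0 to 1 higher and 0 to 1 lower with single libraries left out. Under control antibody 0 members were higher on HFD with no filter, and 0 to 1 with single libraries left out. Under GCGR antibody 3 were lower with only the groups compared, 3 to 6 with single libraries left out, and 2 lower and 2 higher without libraries 19 and 20. For treated HFD against control chow, 0 to 1 were higher and 0 to 4 lower with single libraries left out, and 2 higher without libraries 19 and 20. The share of all tested genes called also moved between fits. With the antibody on HFD, 5.33% were higher in the main fit, 9.65% without library 19 and 7.06% without libraries 19 and 20. On chow it was 0.394% in the main fit and 0.653% with only the groups compared. For most other fits with a library left out this share is not given here.

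Signs turned only in effects that were not called. Mup21 under control antibody went to −0.03272 after rescaling without Mup genes, and ran from −0.04032 to 0.2438 with single libraries left out. Mup3 under GCGR antibody was 0.08944 without libraries 19 and 20. With single libraries left out, Mup10 with antibody on HFD ran from −0.4465 to 0.006876, and the difference between the antibody effects ran from −0.03466 to 1.276 for Mup7, −0.0406 to 0.4825 for Mup2, −0.1439 to 1.172 for Mup1, −0.2143 to 1.415 for Mup14, −0.4351 to 0.5964 for Mup17 and −0.04146 to 0.6555 for Mup21. The cause was not tested.

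Scaling moved the balance of calls over all genes. Higher and lower calls with the antibody on HFD were 636 and 253 as deposited, 414 and 442 with median-ratio scaling, and 764 and 177 without the Mup genes. Under control antibody the diet calls were 1390 and 2183, 1826 and 1817, and 777 and 3462. Under GCGR antibody they were 1579 and 1983, 1843 and 1802, and 1065 and 2755. For treated HFD against control chow they were 1530 and 1279, 1539 and 1486, and 1095 and 1588. For the difference between the antibody effects they were 15 and 9, 7 and 11, and 5 and 2. Depth is unknown, so counting error could not be set beside these spreads, and copies that share reads limit the precision of single genes.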
